A study of Mus musculus with 3 samples.

Results

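The 10 genes described here carry, store or sense zinc and related metals: the metallothioneins Mt1, Mt2 and Mt3, the zinc sensor Mtf1, the importers Slc39a8, Slc39a10 and Slc39a14, and the exporters Slc30a1, Slc30a3 and Slc30a10. They were taken by gene name from the scanner files of a mouse expression array, on which 22328 genes could be joined to a current symbol. The 10 genes had 13 probes, each printed as 1 spot; 8 genes had 1 probe, while Mt1 had 2 and Mtf1 had 3. Of the 13 probes, 12 were detected on all 3 arrays, and 1 probe of Mtf1 was detected on none.

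The samples were primary cerebral cells of C57BL6/J mice, dissociated at embryonic day 18 and grown in neurobasal medium with B27 supplement. From day 10 in vitro they received, for 24 h, either 1 mM valproate, an antiepileptic drug that inhibits class I histone deacetylases, or 100 µM lamotrigine, a sodium channel blocker used against epilepsy, or DMSO alone; all 3 cultures contained 0.1% DMSO. Each treatment was measured on 1 array, and the 3 arrays lay on 1 slide. The study asked which genes respond to class I histone deacetylase inhibition, and its labels state that the lamotrigine array was made for other work on antiepileptic drugs. Because every treatment has a single array, differences could not be set against the spread between cultures; they are described without p-values, and the small number of arrays is what limits their precision.

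Metallothioneins are small, cysteine-rich proteins that bind zinc and copper in the cytosol. Zinc that accumulates there is bound by Mtf1, which then activates the metallothionein genes and the exporter Slc30a1 through short metal response elements in their promoters. Slc39a proteins bring zinc into the cytosol and Slc30a proteins move it out, either across the cell surface or into vesicles; in the forebrain, Slc30a3 fills the synaptic vesicles of glutamatergic neurons with zinc.

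Signals are given as scaled signal, on which 100 is the 75th percentile of the array's non-control spots. In processed signal that percentile was 478, 372 and 388 for the valproate, DMSO and lamotrigine arrays, and 0 spots were saturated. A probe counted as detected where its spots were marked well above background, and the dimmest such probes had scaled signals of 3.88, 5.29 and 4.63 in the same order. Probes printed 10 times gave a technical SD of a log2 difference between valproate and DMSO of 0.23 for scaled signals under 25, 0.11 from 25 to 100, 0.08 from 100 to 400 and 0.06 above. This SD comes from the spread of spots within each array. It does not cover differences between arrays in hybridisation or scanning, nor cultures, RNA extraction or labelling. Scaled signals of different genes come from different probes and are not compared with each other.

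Between valproate and DMSO, 2 of the 10 genes were at least 2-fold higher, 0 were at least 2-fold lower and 8 lay between. The share of all 14346 genes measured on both arrays was 2.09% past 2-fold upwards and 1.42% past 2-fold downwards. The genes past that threshold were Slc39a8 and Slc30a3, and their signals on the DMSO array were close to the detection limit. Among genes with a mean scaled signal under 25, as for this pair, the shares were 5.12% upwards and 4.48% downwards. The median log2 difference of the 10 genes was -0.08, equal at this precision to the -0.08 of all 14346 genes, of which 39.3% lay above 0. Between lamotrigine and DMSO 0 genes were at least 2-fold apart and all 10 lay between, against 0.0976% of all genes past 2-fold upwards and 0.0628% downwards. Valproate against lamotrigine again had Slc39a8 and Slc30a3 at least 2-fold higher and 0 genes at least 2-fold lower, against 2.06% and 1.69% of all genes. The comparisons share arrays and are not independent of each other. Because the 10 genes were chosen with earlier results of these data known, their counts and ranks are descriptions only.

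**Figure D1:**
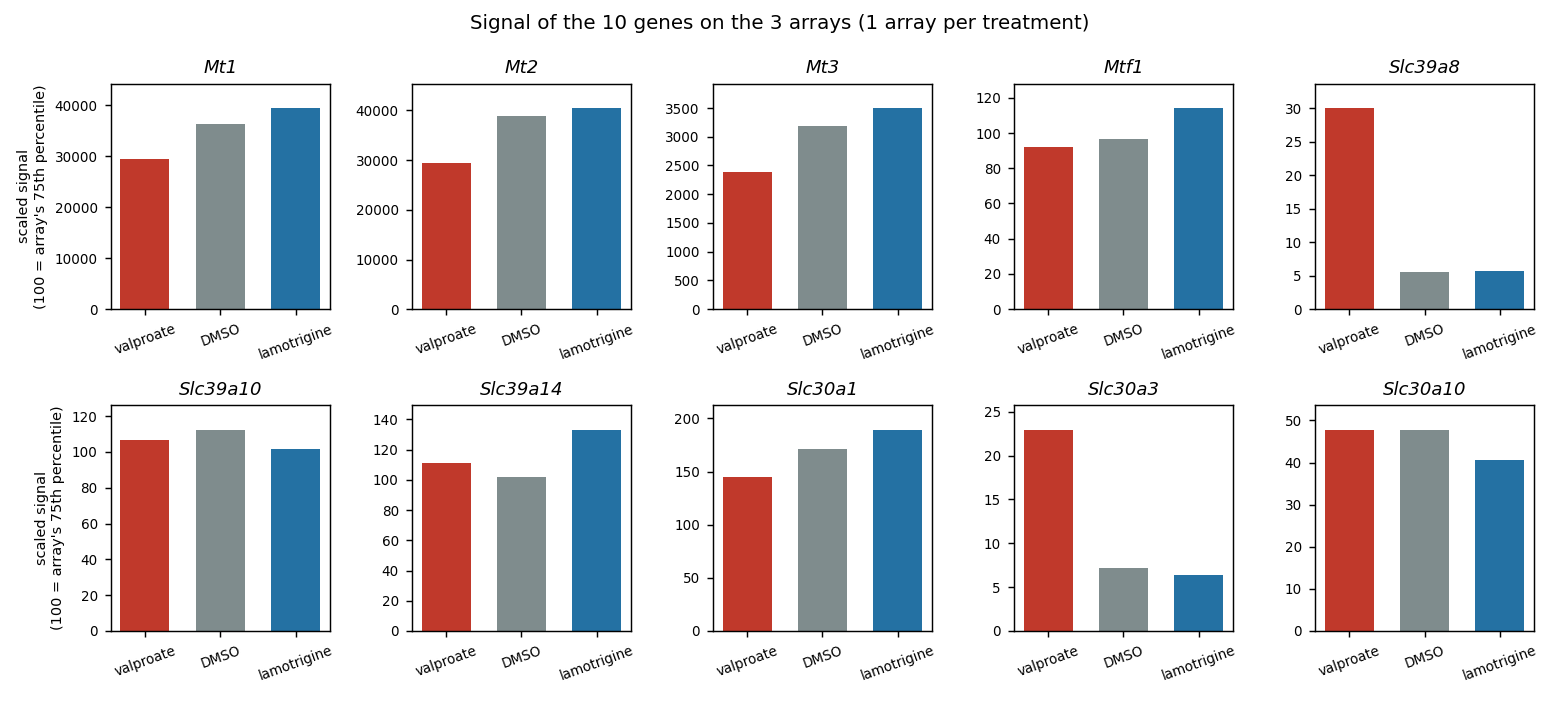
Scaled signal of each gene (linear axis from 0, a separate axis for each gene) on the valproate, DMSO and lamotrigine arrays, 1 bar per array. Slc39a8 and Slc30a3 were highest on the valproate array, while Mt1, Mt2, Mt3, Mtf1 and Slc30a1 were lowest there. Each bar is 1 spot, and the error that the scanner software assigns to a spot is not drawn.

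Of the members, Mt1, Mt2 and Slc30a1 are the described targets of the zinc sensor with a metal response element close to the start of transcription. Their upstream sequences are shown with matches to the core of that element marked. The sequences are the 250 bases before the start given by RefSeq for GRCm38.p6, read 5′ to 3′ on the gene's strand. Capitals mark the core TGCACNC or TGCGCNC on either strand.
Mt1, chr8:94178839-94179088, plus strand: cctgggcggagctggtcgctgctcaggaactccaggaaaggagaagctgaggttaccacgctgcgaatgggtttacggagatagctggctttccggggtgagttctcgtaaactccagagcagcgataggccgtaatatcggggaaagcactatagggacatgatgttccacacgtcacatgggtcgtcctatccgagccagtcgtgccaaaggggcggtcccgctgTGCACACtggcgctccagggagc
Mt2, chr8:94172368-94172617, plus strand: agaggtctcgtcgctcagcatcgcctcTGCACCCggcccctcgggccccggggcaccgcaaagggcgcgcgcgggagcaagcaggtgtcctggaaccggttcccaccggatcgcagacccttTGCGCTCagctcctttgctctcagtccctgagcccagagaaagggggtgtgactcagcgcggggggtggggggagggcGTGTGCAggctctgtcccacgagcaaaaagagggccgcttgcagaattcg
Slc30a1, chr1:191906531-191906780, plus strand: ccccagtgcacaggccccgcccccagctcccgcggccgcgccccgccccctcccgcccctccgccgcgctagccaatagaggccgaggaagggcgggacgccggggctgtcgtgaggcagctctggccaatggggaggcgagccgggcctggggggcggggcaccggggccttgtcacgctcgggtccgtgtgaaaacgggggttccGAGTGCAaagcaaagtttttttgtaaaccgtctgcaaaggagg
Mt1 held 1 match, 23 to 17 bases before the start, Mt2 held 3, and Slc30a1 held 1 on the opposite strand. Among all 32851 promoter windows of this length, 21.4% held at least 1 match and 1.26% held at least 3. Of the 10 genes, 9 had a window in the table, with 12 windows in all, and 6 of the 12 held a match. The windows of Mt3 and Mtf1 held 0, and that of Slc30a10 held 3, of which 2 overlapped on opposite strands. A match describes letters only. It does not show that a factor binds there or that the match is one of the described elements. The windows depend on the start that RefSeq gives. Whether the described elements lie inside or outside them was not tested, so the counts are not counts of those elements.

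The metallothioneins had lower scaled signals with valproate than with DMSO, and slightly higher ones with lamotrigine. Mt1, a ubiquitous metal-binding isoform, had a scaled signal of 29384 with valproate, 36364 with DMSO and 39510 with lamotrigine. Its log2 difference between valproate and DMSO was -0.31 with a technical SD of 0.06, but it lay just above 0 with quantile normalization (0.02), with spike-in scaling (0.04) and in the authors' deposited table (0.02). Mt2, the isoform made beside it from the neighbouring gene, had 29323, 38910 and 40512 in the same order. Its log2 difference was -0.41, and the nearest to 0 among the alternatives was -0.06, with spike-in scaling. Mt3, the brain isoform, had 2380, 3193 and 3504, and its log2 difference of -0.42 came to -0.07 with spike-in scaling. Against lamotrigine the valproate array was lower by log2 values of -0.43 for Mt1, -0.47 for Mt2 and -0.56 for Mt3, and these kept their sign under all 10 alternatives. The lamotrigine and DMSO arrays differed by 0.12, 0.06 and 0.13, each less than 2 technical SD.

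These shifts stand beside lower signals of bright probes as a whole on both drug arrays than on the DMSO array. Of the genes with a mean scaled signal of at least 10000, which include Mt1 and Mt2, 249 were compared between valproate and DMSO, and their median log2 difference was -0.25 with an SD of 0.17. Among the 880 genes between 2000 and 5000, where Mt3 lies, the median was -0.16 with an SD of 0.23. Between lamotrigine and DMSO, where Mt1, Mt2 and Mt3 were above 0, the medians of these groups were -0.14 and -0.11. Between valproate and lamotrigine they were -0.11 and -0.04. Genes of like signal were taken more widely, from the same range of scaled signal as for the technical SD, here the 5018 genes over 400. As a description, 25.6% of those 5018 genes lay as far from 0 as Mt1, 13.6% as far as Mt2 and 12.3% as far as Mt3. The second probe of Mt1, designed on an Ensembl transcript at chr8:96703844-96703903 in mm9, had scaled signals of 95.8, 91.3 and 118 and a log2 difference of 0.07 between valproate and DMSO, less than its technical SD of 0.11. The probe of the RefSeq transcript lies downstream of it at chr8:96704165-96704224. Mt4, described mainly in stratified epithelium, was near the detection limit with 5.35 and 7.11 on the valproate and DMSO arrays and was not detected with lamotrigine.

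Astrocytes are a main site of Mt1 and Mt2 in the brain, so astrocyte markers are given beside these values. Of 12 astrocyte markers, all detected on every array, 11 were below 0 between valproate and DMSO, where 39.3% of all genes lay above 0. Beside 1.42% of all genes, 2 of the 12 markers were at least 2-fold lower. Their summed scaled signal was 24373 with valproate, 46085 with DMSO and 44821 with lamotrigine. Aldoc made up much of that sum, and without it the sums were 14300, 20090 and 19216 in the same order. The median log2 difference of the 12 markers, -0.52, stayed below 0 under every alternative run. Farthest from 0 were Aqp4, a water channel of their end-feet, with -1.62, and Aldoc, an aldolase, with -1.37. Lower markers were not particular to astrocytes. The median between valproate and DMSO was -0.84 for ependyma and choroid plexus and -0.41 for fibroblasts and meninges. Both stayed below 0 under every alternative run. It was -0.29 for neurons, -0.28 for the oligodendrocyte lineage, -0.12 for endothelial and mural cells and 0.00 for microglia and macrophages. The 1 erythroid marker measured was at 1.09. The part of any of these markers in the metallothionein values was not tested. In a bulk sample fewer cells of a type and less RNA per cell cannot be told apart.

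Mtf1, the zinc-sensing transcription factor, had similar signals with valproate and DMSO. The probe at chr4:124526365-124526424 (mm9) had scaled signals of 91.9 with valproate, 96.9 with DMSO and 114 with lamotrigine. Its log2 difference between valproate and DMSO, -0.08, was less than 1 technical SD of 0.11 and turned positive with spike-in scaling and with the mean of the detected probes. Its difference between lamotrigine and DMSO was 0.24, with a technical SD of 0.08. A second probe at chr4:124522092-124522151 had 8.52, 7.09 and 11.9, with differences of 0.26 and 0.74 whose technical SD was 0.23 and 0.24. Both detected probes were thus highest with lamotrigine. Over the 9 genes listed as described targets of Mtf1, 7 were below 0 with valproate and 2 above, beside the 39.3% of all genes above 0. The 7 include the members Mt1, Mt2 and Slc30a1, and also Slc39a10, which Mtf1 is described as holding down, so the count mixes directions of control. In the list 0 genes were at least 2-fold apart, and the median of -0.23 turned positive with spike-in scaling. In that list the selenoprotein Selenow was at -0.47 with valproate, and Gclc, which makes the first intermediate of glutathione, at 0.11.

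Among the importers, Slc39a8 stood apart and Slc39a10 and Slc39a14 did not. Slc39a8, which carries zinc, manganese and other divalent metals across the plasma membrane, had a scaled signal of 30.0 with valproate, 5.55 with DMSO and 5.63 with lamotrigine. The error that the scanner software assigns to each spot was 3.10, 1.20 and 1.09 on the same scale. The valproate signal lay far above both others, which did not differ beyond that error and sat just above the detection limits of their arrays. Slc39a8 was thus 5.42-fold higher with valproate than with DMSO, a log2 difference of 2.44 with a technical SD of 0.23, and 5.34-fold higher than with lamotrigine. It ranked 6 from the top among 14346 genes, and 0.226% of genes of like signal lay as far from 0. With normexp background correction, which adds an offset of 50 to every spot and so compresses low signals, the log2 difference was 0.94 and no longer 2-fold; the remaining alternatives gave 2.42 to 2.79. Its probe lies at chr3:135551169-135551228 on the plus strand of mm9.

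Slc39a8 is also expressed outside the neural lineage, in endothelial and myeloid cells among others, so those markers are given. Of 10 microglia and macrophage markers 4 were not detected on any array, and the 6 measured had a median log2 difference of 0.00 between valproate and DMSO. Of the endothelial markers, the receptor Kdr was detected on all 3 arrays with scaled signals of 762, 665 and 839 for valproate, DMSO and lamotrigine, and the junction protein Cdh5 with 25.8, 35.3 and 33.6. Their log2 differences between valproate and DMSO were 0.20 and -0.45. Pecam1 was detected with valproate and lamotrigine, and Cldn5 and Tek on no array. The vascular growth factor receptor Flt1 reached 27.3 in scaled signal with valproate and was not well above background on the other arrays, so its log2 difference of 2.37 is a bound. The summed signal of the 9 endothelial and mural markers was 3532 with valproate, 4047 with DMSO and 4218 with lamotrigine. Without Acta2, a smooth muscle actin of mural cells, it was 882, 778 and 952, and the part of these cells in the Slc39a8 value was not tested.

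Slc39a10, a surface importer that Mtf1 is described as holding down, had scaled signals of 106.6, 112.5 and 101.8 with valproate, DMSO and lamotrigine. Its difference from DMSO was -0.08 with valproate and -0.14 with lamotrigine, both less than 2 technical SD and both above 0 with spike-in scaling. Slc39a14, which carries zinc, iron and manganese, had 111, 102 and 133. Its difference was 0.12 with valproate, less than 2 technical SD, and 0.39 with lamotrigine, where the technical SD was 0.08 and 2.97% of genes of like signal lay as far from 0. It was at rank 527 from the top of 14340 genes.

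**Figure D2:**
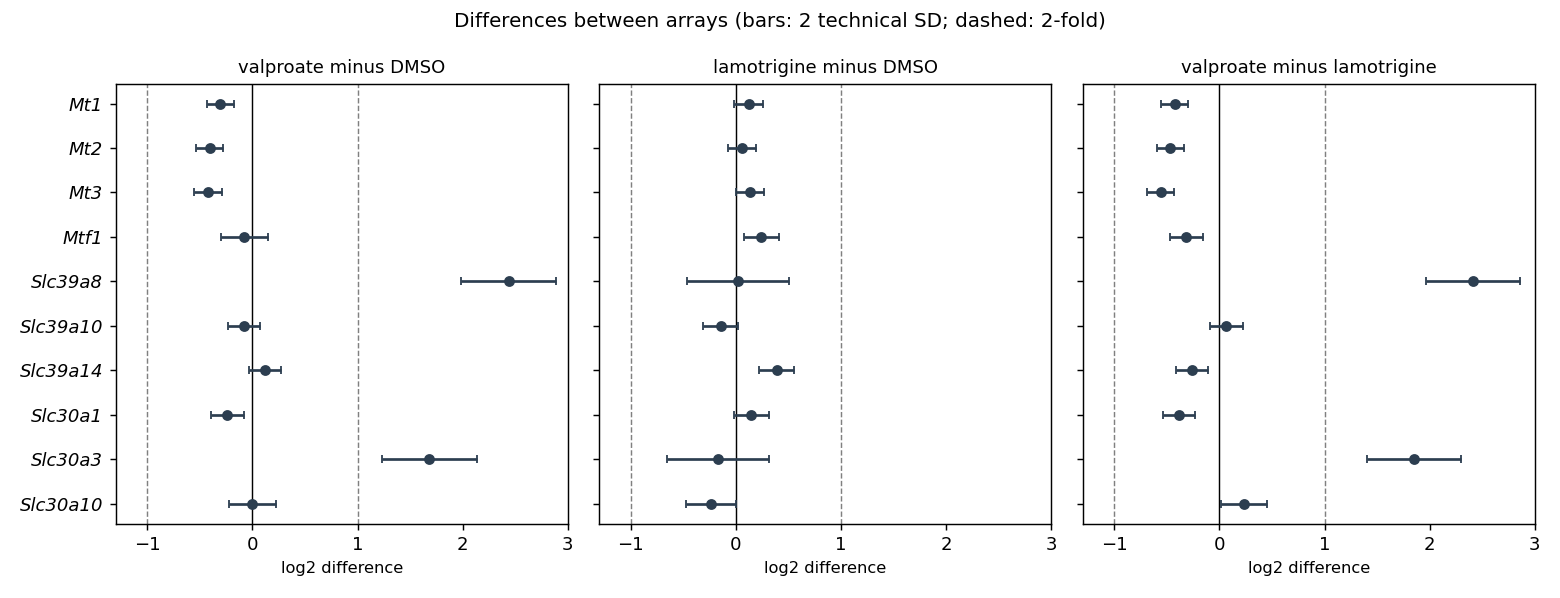
Log2 difference of each gene (horizontal axis) in the 3 comparisons of arrays, with bars of 2 technical SD from probes printed 10 times and dashed lines at 2-fold. Slc39a8 and Slc30a3 lay past the dashed line in both comparisons of valproate (2.44 and 1.68 against DMSO), and 0 genes did so between lamotrigine and DMSO; Mt1 turned positive against DMSO with quantile normalization and spike-in scaling.

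Among the exporters, the vesicular transporter Slc30a3 was higher with valproate. Its scaled signal was 23.0 with valproate, 7.15 with DMSO and 6.37 with lamotrigine, and the scanner software's error of these spots was 2.50, 1.58 and 1.39. The valproate signal was the high one, and the other two overlapped within their errors. Slc30a3 was 3.21-fold higher with valproate than with DMSO, a log2 difference of 1.68 with a technical SD of 0.23, and 3.61-fold higher than with lamotrigine. It ranked 56 from the top, and 1.63% of genes of like signal lay as far from 0. With normexp background correction the log2 difference was 0.50, and the other alternatives gave 1.66 to 2.03. The probe lies at chr5:31390388-31390447 on the minus strand of mm9.

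The upstream windows of the pair of genes past 2-fold are shown for comparison with those of the zinc sensor's targets, at the first of the 2 starts that the table lists for each.
Slc39a8, chr3:135825029-135825278, plus strand: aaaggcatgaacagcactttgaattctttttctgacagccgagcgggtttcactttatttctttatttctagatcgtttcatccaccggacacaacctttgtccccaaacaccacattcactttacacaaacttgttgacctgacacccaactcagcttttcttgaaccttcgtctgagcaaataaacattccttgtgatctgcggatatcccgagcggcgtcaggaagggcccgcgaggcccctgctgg
Slc30a3, chr5:31108245-31108494, minus strand: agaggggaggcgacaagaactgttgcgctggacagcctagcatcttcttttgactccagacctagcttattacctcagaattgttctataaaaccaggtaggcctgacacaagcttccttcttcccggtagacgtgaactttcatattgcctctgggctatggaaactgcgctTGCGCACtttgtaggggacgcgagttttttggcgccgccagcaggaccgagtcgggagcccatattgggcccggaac
That of Slc39a8 held 0 matches to the core and that of Slc30a3 held 1, 77 to 71 bases before the start. At the second start the counts were 1 for Slc39a8 and 0 for Slc30a3, and no match in a window says only that these letters are not in it.

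The genes that act with Slc30a3 in synaptic vesicles did not move with it past 2-fold. Of the 10 genes listed for vesicular zinc and the adaptor complex that sorts the transporter, all were measured, 6 were above 0 with valproate and 4 below. Slc30a3 was the 1 gene at least 2-fold higher, beside 2.09% of all genes. The vesicular glutamate transporter Slc17a7, which fills the same vesicles, had scaled signals of 108, 95.8 and 91.0 and a log2 difference of 0.17 with valproate. The chloride transporter Clcn3 was at -0.39 and the neuronal adaptor subunit Ap3b2 at -0.28, which turned positive with spike-in scaling and with the mean of detected probes. Of 12 neuron markers, all detected, 8 were below 0 with valproate, beside the 39.3% of all genes above 0, and their summed signal was 27091 against 34952 with DMSO and 30736 with lamotrigine.

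Slc30a1, the exporter at the plasma membrane, ran in the direction of the metallothioneins with signals of 145, 171 and 189 for valproate, DMSO and lamotrigine. Its difference from DMSO was -0.24 with valproate, with a technical SD of 0.08, and came to 0.11 with spike-in scaling; with lamotrigine it was 0.15. Its difference between valproate and lamotrigine was -0.38 and stayed below 0 under all alternatives. Slc30a10, which exports manganese, had 47.8 with valproate, 47.8 with DMSO and 40.6 with lamotrigine. Its difference with valproate was -0.00, with a sign that depends on the scaling, and with lamotrigine it was -0.24, with a technical SD of 0.12. Of the 8 genes listed for manganese transport, Slc39a8 was the 1 gene at least 2-fold higher with valproate, beside 2.09% of all genes. The transferrin receptor Tfrc was lowest in that list at -0.70 with valproate, and it was also below DMSO with lamotrigine, at -0.54. Between valproate and lamotrigine it was at -0.16.

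Within their families, Slc30a3 and Slc39a8 were the single genes past 2-fold with valproate. Of 10 Slc30a genes 9 were measured with valproate, 1 was at least 2-fold higher and 0 lower, beside 2.09% and 1.42% of all genes. Among genes with a mean scaled signal under 25, such as Slc30a3 and Slc39a8, those shares were 5.12% and 4.48%. The Slc30a median was -0.10, above 0 with spike-in scaling. Of 14 Slc39a genes 11 were measured, 1 was at least 2-fold higher and 0 lower, with a median of -0.07 that turned positive with quantile normalization, with spike-in scaling and in the authors' deposited table. Slc30a8 of pancreatic islets, Slc39a5 and Slc39a9 were not detected on any array. Slc39a9 had signals of 3.29, 5.61 and 4.64 for valproate, DMSO and lamotrigine, near the detection limits. Its call does not show that its RNA was absent. The intestinal importer Slc39a4 was at -0.59 with valproate, with signals of 58.1, 87.3 and 99.0. Slc39a12, an importer of astrocytes and other brain cells, was at least 2-fold lower with valproate than with lamotrigine, with signals of 156 with valproate, 222 with DMSO and 324 with lamotrigine. Its log2 difference from DMSO was -0.51 with valproate and 0.55 with lamotrigine, and its second probe gave -0.36 and 0.86. Between the drugs it was at -1.06, and spike-in scaling (-0.91) and normexp background correction (-0.99) brought it under 2-fold.

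**Figure D3:**
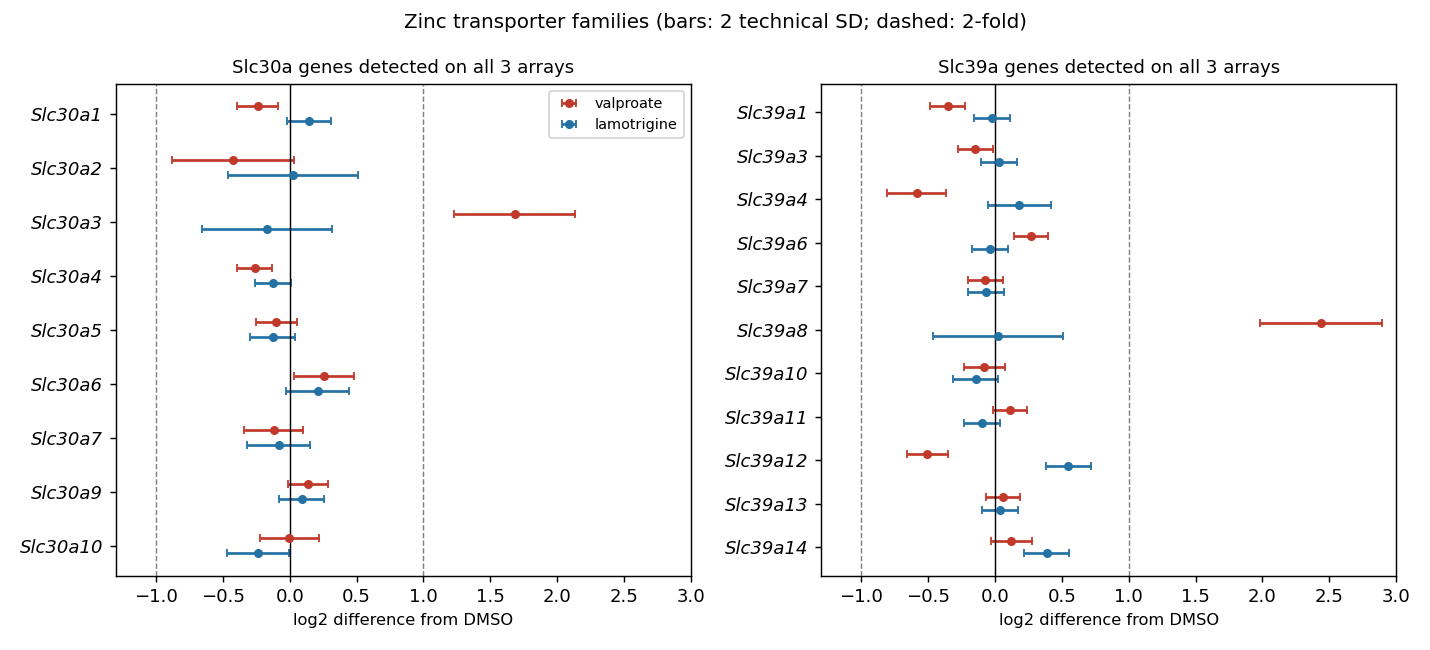
Log2 difference from DMSO (horizontal axis) of the Slc30a and Slc39a genes detected on all 3 arrays, for valproate and lamotrigine, with bars of 2 technical SD and dashed lines at 2-fold. Slc30a3 (1.68) and Slc39a8 (2.44) lay apart with valproate, and Slc39a12 lay below 0 with valproate (-0.51) and above it with lamotrigine (0.55).

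Genes with the pattern most like each of the pair past 2-fold were found by the distance between their differences of valproate and lamotrigine from DMSO, over 13261 genes detected on all 3 arrays. For Slc39a8 they were Nxnl2, a thioredoxin-like protein of photoreceptors, Emilin2, an extracellular matrix glycoprotein, and Fam221a. Nxnl2 had scaled signals of 69.2, 13.7 and 13.8, and Emilin2 had 211, 42.4 and 48.3. For Slc30a3 they were Stbd1, which binds glycogen, Epop, a partner of Polycomb repressive complexes, and the homeobox factor Six4. Stbd1 had 211, 68.0 and 60.3 and Epop had 978, 292 and 263. Likeness over 2 differences from 3 arrays that share a control is a description of these arrays.

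**Figure D4:**
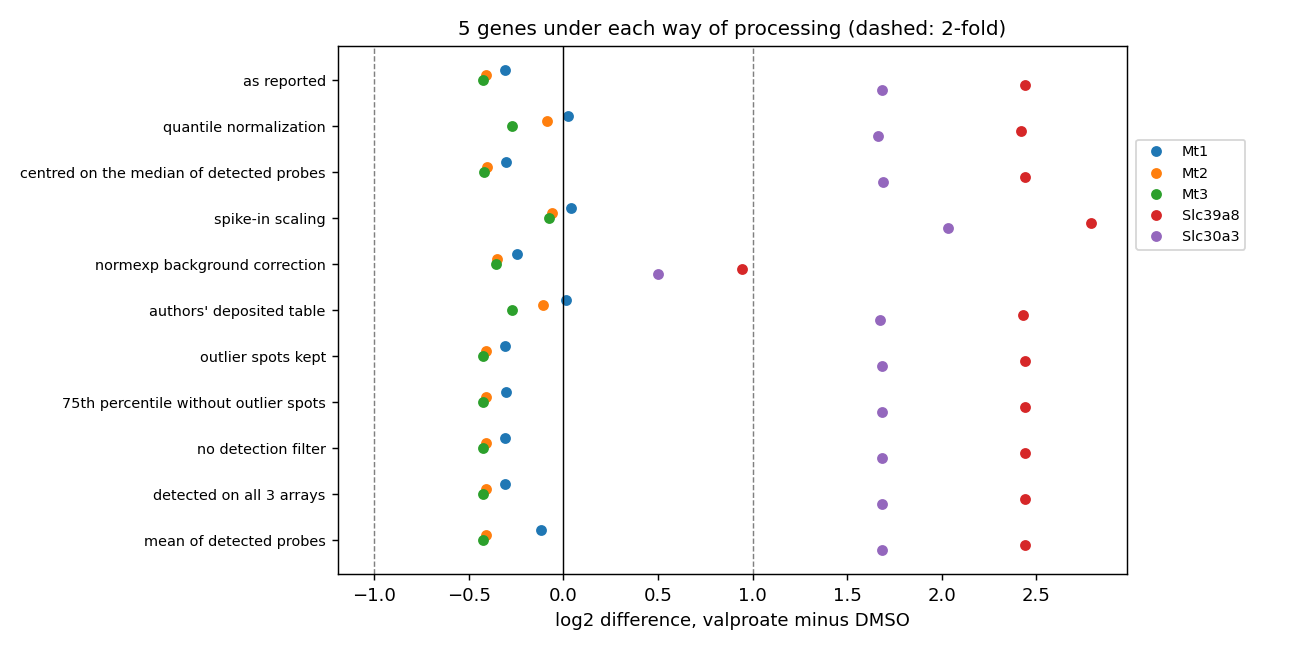
Log2 difference between valproate and DMSO (horizontal axis) of Mt1, Mt2, Mt3, Slc39a8 and Slc30a3 as reported and under each alternative way of processing, with dashed lines at 2-fold. Slc39a8 and Slc30a3 fell below the 2-fold line with normexp background correction (0.94 and 0.50), and Mt1 crossed 0 with quantile normalization, spike-in scaling and the authors' deposited table.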

How the data were processed

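RNA was extracted with TRIzol and labelled by Low Input Quick Amp for 1-colour arrays, per the labels' protocols. Probe intensity is the deposited processed signal of Feature Extraction 10.7.1.1, already background-corrected per the file headers, and probe positions are in mm9. The authors' deposited table holds intensity values that, from the values, were quantile-normalized; it served as an alternative. Levels were log2 of the processed signal minus log2 of the array's 75th percentile over all non-control spots. Outlier spots were left out of probe averages, which dropped 1 probe. A gene stood for its probe with the highest mean level, and a difference was called at 2-fold, as a description. A gene detected on 1 array only has a bound. Python 3.11.15, pandas 2.3.3, R 4.3.3 and limma 3.58.1 (normexp) were used; the calling of differences was tested on simulated data. Named genes outside the 10 came from lists of up to 4 measured genes farthest from 0 in a comparison, from the families, or from the genes of like pattern. Cldn5 and Tek were named as markers detected on no array. The members and lists were chosen with earlier results of these data known.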

Additional observations from a re-analysis of the deposited data

How the results depend on the processing

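The count of the 10 genes at least 2-fold apart was 2 between valproate and DMSO, 0 between lamotrigine and DMSO and 2 between valproate and lamotrigine. With normexp background correction these became 0, 0 and 1, and under the remaining 11 of 12 alternatives they held. The offset of 50 in that correction compresses low signals by construction. Spike-in scaling, set on 6 of 10 spike-in probes, moved all genes by 0.35 between valproate and DMSO, 0.20 between lamotrigine and DMSO and 0.15 between valproate and lamotrigine. Of the 10 genes, 5 changed sign between valproate and DMSO in at least 1 of 10 alternatives (Mt1, Mtf1, Slc39a10, Slc30a1 and Slc30a10), 3 between lamotrigine and DMSO (Slc39a8, Slc39a10 and Slc30a3) and 0 between the drugs. The median of the erythroid markers, 1 gene at 1.09, was -0.46 over 3 genes without the detection filter. One alternative was chosen after seeing the data: taking the 75th percentile without outlier spots gave 302 in place of 300 genes at least 2-fold higher with valproate than with DMSO, and left the other counts over all genes as they were. No paired analysis was possible because each treatment has 1 array and the values come from no test.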
